A study of Capra hircus with 12 samples.

Results

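The Wnt genes described here are 50 genes, picked by symbol, out of 20326 in the deposited tables, and all 50 symbols were found. They comprise 14 Wnt ligands, 2 proteins of ligand processing, 2 R-spondins, 11 receptors and co-receptors, 8 extracellular inhibitors, 9 cytoplasmic proteins and 4 nuclear effectors. Levels were measured by RNA sequencing in the secondary hair follicles of goats, which make the fine undercoat, at an age of 1.5 years (Capra hircus). Libraries of May and September stand for anagen, when hair grows. Those of November and December stand for catagen, when the follicle regresses, and those of February and March for telogen, when it rests. Each of these 6 months gave 1 female and 1 male library, 12 in all and 4 per stage. The series title calls the animals cashmere goats. No genotype or treatment is given in the sources used here, and nothing says whether an animal was sampled more than once, so p-values measure the spread between these libraries.

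Wnt proteins are secreted, lipid-modified signals that bind a Frizzled receptor together with the co-receptor LRP5 or LRP6. In the canonical branch this binding recruits Dishevelled and stops a complex of axin, APC and the kinase GSK3B from marking beta-catenin (CTNNB1) for destruction, and beta-catenin then joins a TCF or LEF protein on DNA. In mouse skin the pathway is needed to form hair follicles and to start a new growth phase, and it is held down by secreted inhibitors during rest.

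Values are those of the deposited column headed TPM, a transcript abundance scaled to library size, a unit that takes out transcript length, so that levels of different genes can be set side by side. Library sums ran from 904623 to 1127797 where that unit would give 1 common sum, so the authors had rescaled the values and read depth is unknown. Tests were run with limma on log2(value + 1) over 16095 genes, those reaching 1 or more in 2 or more libraries, and a gene passed at an adjusted p under 0.05. Of the 50 Wnt genes, 48 were tested. WNT7A and SFRP4 stayed below 1 in every library, at 0.15 to 0.94 and 0 to 0.87. Adding 1 understates the changes of genes with low values.

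The libraries carried transcripts of hair follicle layers, along with those of genes listed for epidermis and dermal fibroblasts. Among 5 inner root sheath genes found of 9 listed, the summed value was 16400 to 21050 in anagen, 12510 to 18940 in catagen and 3560 to 12330 in telogen. The summed value of hair shaft keratins, 7 found of 14, was 1139 to 1378, 967.7 to 1488 and 326.6 to 989.6 in the same order. Dermal papilla genes, all 10 found, summed to 90.3 to 120.5, 95.4 to 110.6 and 91.0 to 113.1, with SOX2 below 1 in every anagen and catagen library and NOG below 1 in every telogen library. Genes listed for epidermis, 5 found of 8, summed to 1392 to 3550, 1099 to 1955 and 1494 to 2764 in the same order. Those listed for dermal fibroblasts, all 8 found, summed to 1192 to 1799, 715.4 to 1320 and 785 to 1633. Libraries of the stages also differed in composition. Transcripts of the mitochondrial genome took 1.53 to 2.42% of the signal in anagen, 2.07 to 3.51% in catagen and 4.63 to 11.8% in telogen, and ribosomal protein genes took 17.6 to 22.3%, 20.6 to 24.8% and 12.4 to 17.6%. The March male had the lowest mitochondrial and the highest ribosomal share of the 4 telogen libraries.

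In telogen, 14 of the 48 tested genes were lower than in catagen and 7 were higher, and all but WNT3 were also called, with the same sense, between telogen and anagen. The transcripts that fell included the ligands WNT3A, WNT6, WNT10A, WNT10B and WNT11, the receptors FZD1, FZD2 and LRP5, CTNNB1 itself, and AXIN2. Those that rose included APC and GSK3B of the destruction complex and the transcription factors TCF7, TCF7L1 and TCF7L2. The share of Wnt genes called, 43.8%, was close to the 43.6% of all tested genes called, so the number by itself is no result about Wnt genes. By direction, 14.6% of Wnt genes rose and 29.2% fell, beside 24.5% and 19% of all genes; with libraries scaled to equal sums 8 rose and 10 fell. Their median log2 change was -0.05, beside 0.07 over all genes.

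**Figure D1:**
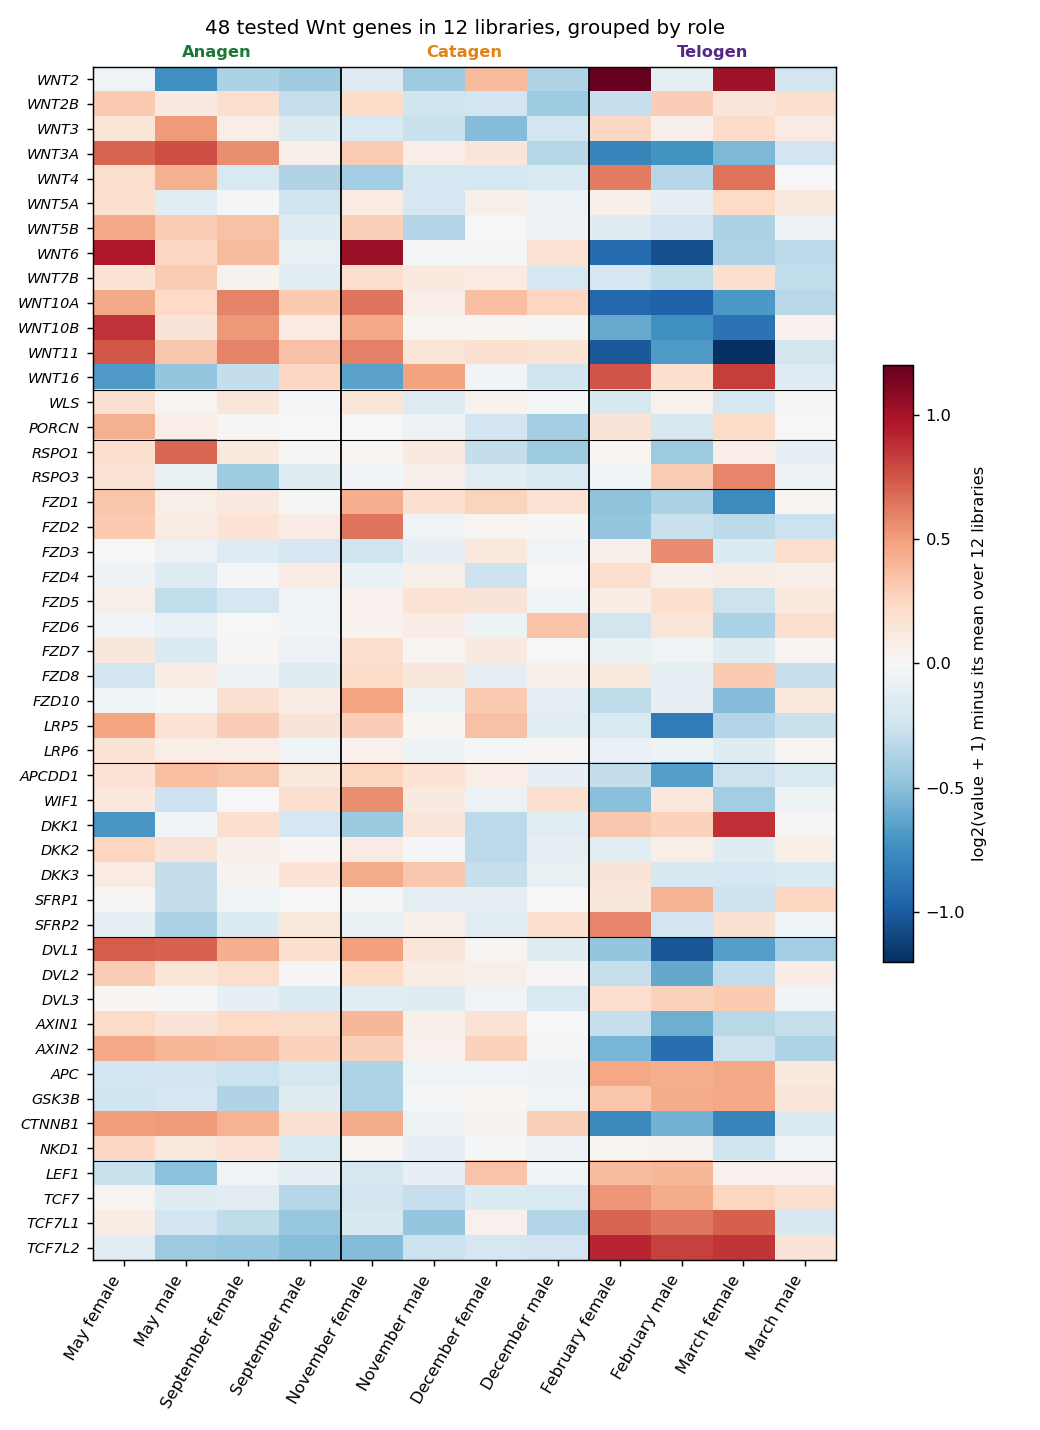
Level of the 48 tested Wnt genes in the 12 libraries, as log2(value + 1) minus the gene's mean over all libraries (colour, red above and blue below), with columns grouped by stage and rows by role. The 4 telogen columns differ from the other 8 in many rows, blue for WNT10A, WNT11, AXIN2 and CTNNB1 and red for TCF7L2, and the March male is paler than the other telogen libraries in most of these.

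CTNNB1 had the highest level of all 50 genes, with a mean of 371 over the 12 libraries. APCDD1 followed at 174, WLS at 118 and SFRP1 at 113. The receptors FZD10, FZD7, FZD6, LRP6 and FZD1 lay between 45.4 and 85.1, and LEF1 was the highest nuclear effector at 64.4. WNT11 and WNT5A, at 30.6 and 29.7, were the only ligands with a mean above 10 over all libraries. Of the other 12 ligands, WNT3 had 9.91, WNT10A 8.53 and WNT4 6.61, and the remaining 9 were between 0.457 and 4.66. WNT11 exceeded WNT5A in all 8 anagen and catagen libraries and was below it in all 4 telogen libraries. The summed value of all ligands was 129 ± 16.9 in anagen, 114 ± 14.2 in catagen and 94.9 ± 9.14 in telogen (SD, n = 4), and that of the 11 receptors was 389 ± 17.7, 411 ± 29.4 and 352 ± 42.9.

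**Figure D2:**
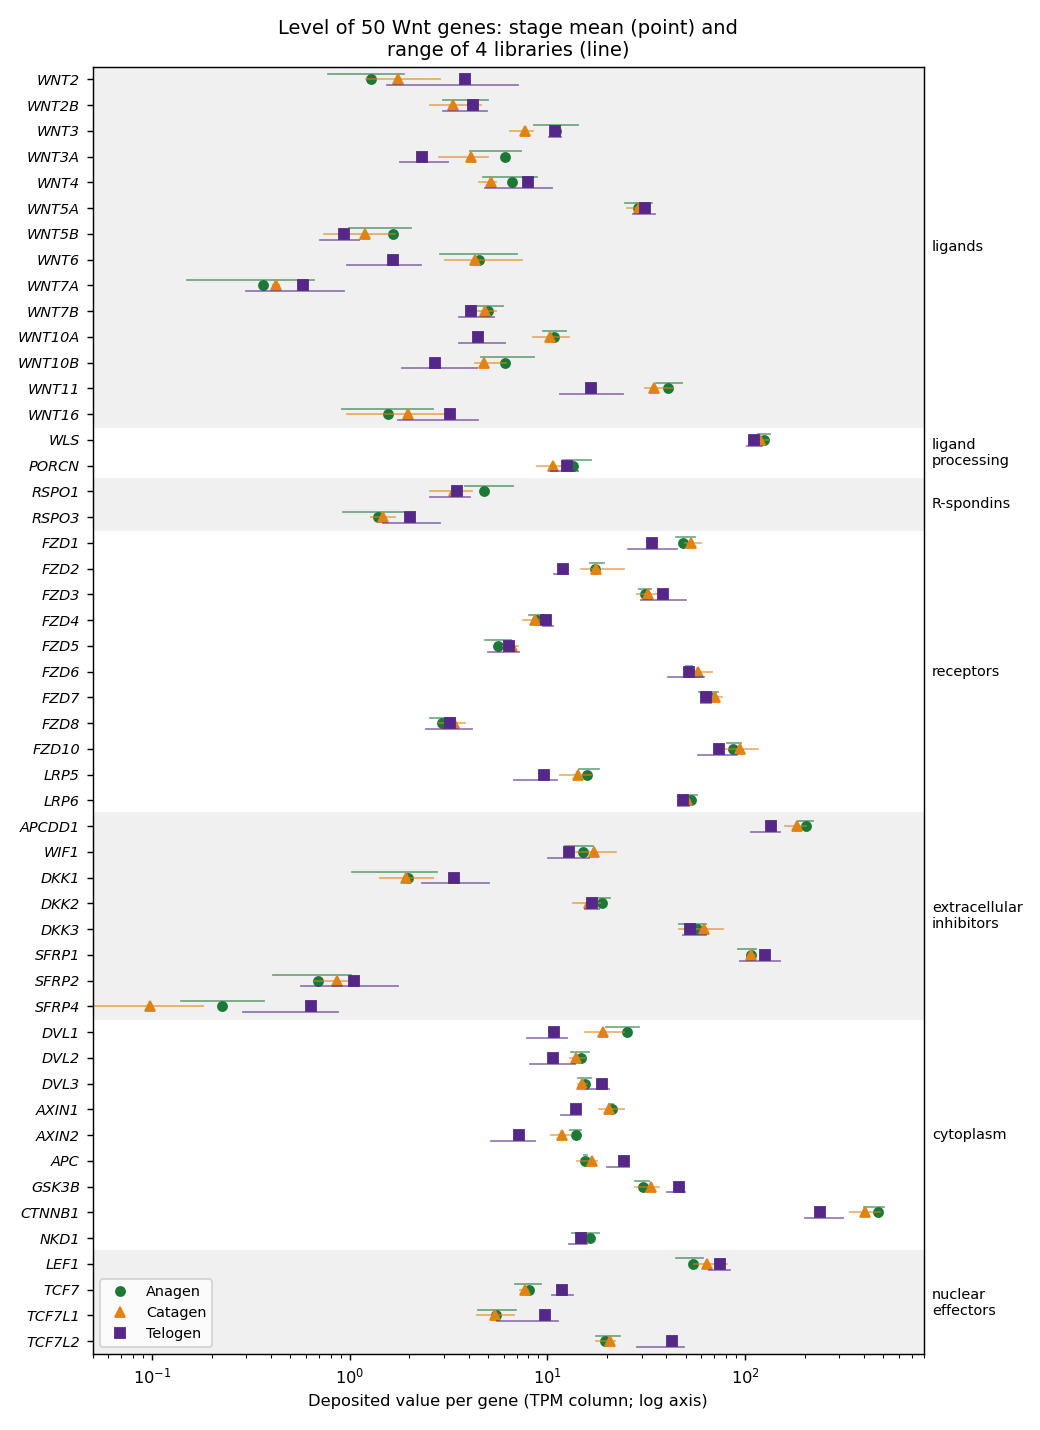
Level of each of the 50 Wnt genes on a log axis of the deposited value, with points for stage means and lines for the range of the 4 libraries of a stage, grouped by role. Levels span more than 3 orders of magnitude, and stage ranges are separate for only some of the genes; the catagen line of SFRP4 is cut at the axis because 1 library is at 0.

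WNT10A had the lowest adjusted p of the ligands in telogen against catagen. In humans, mutations of WNT10A cause defects of hair, teeth and nails. In the order May female, May male, September female and September male for anagen, November female, November male, December female and December male for catagen, and February female, February male, March female and March male for telogen, WNT10A was at 11.2, 9.49, 12.4 and 10.1 in anagen, 12.9, 8.42, 10.4 and 9.64 in catagen and 3.65, 3.56, 4.52 and 6.09 in telogen. All 4 telogen libraries lay below the other 8. It fell by 1.07 on the log2 scale in telogen against catagen (SE 0.157, adjusted p = 5.59e-04) and was higher in anagen than in telogen by 1.129 (SE 0.157, adjusted p = 2.13e-04). WNT10A kept both calls under all 22 alternative treatments of the data that were run.

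WNT10B, its close relative, which marks the onset of follicle growth in mice, was at 8.53, 4.83, 6.53 and 4.61 in anagen, 6.19, 4.35, 4.31 and 4.29 in catagen and 2.45, 2.15, 1.84 and 4.41 in telogen, with libraries in the same order here and below. The March male, at 4.41, lay within the catagen range, and the other 3 telogen libraries were below every catagen and anagen library. It fell by 0.67 on the log2 scale in telogen against catagen (SE 0.214, adjusted p = 0.0224) and was higher in anagen than in telogen by 0.95 (SE 0.214, adjusted p = 0.00269). The call against catagen was lost when any of the November female, both February libraries (each on its own) or the March female was left out (highest adjusted p over all alternatives 0.166), whereas that against anagen was kept under every alternative.

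WNT3A, a classical activator of beta-catenin, was at 6.87, 7.33, 6.14 and 4.08 in anagen, 5.0, 4.14, 4.38 and 2.83 in catagen and 1.8, 1.95, 2.35 and 3.14 in telogen. Its month means were 7.1 in May, 5.11 in September, 4.57 in November, 3.605 in December, 1.88 in February and 2.75 in March. Every telogen library was below every anagen library, while the December male overlapped telogen. It fell by 0.62 on the log2 scale in telogen against catagen (SE 0.185, adjusted p = 0.0174) and was higher in anagen than in telogen by 1.09 (SE 0.185, adjusted p = 5.44e-04). The call against catagen was lost without the November female or February female and with libraries scaled to equal sums (highest adjusted p over all alternatives 0.181).

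WNT6, an epithelial ligand, was low throughout, at 6.99, 3.86, 4.34 and 2.85 in anagen, 7.4, 3.03, 3.06 and 3.63 in catagen and 1.16, 0.97, 2.18 and 2.3 in telogen. The May female and November female had the highest values, and all telogen libraries were below all others. It fell by 0.96 on the log2 scale in telogen against catagen (SE 0.274, adjusted p = 0.0137) and was higher in anagen than in telogen by 1.04 (SE 0.274, adjusted p = 0.00674). Both WNT6 calls were lost without both February libraries (highest adjusted p over all alternatives 0.169 and 0.107). That against anagen was also lost without both May libraries.

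WNT3 went the other way against catagen. This ligand, expressed in the follicle epithelium of mice, was at 10.9, 14.3, 10.3 and 8.56 in anagen, 8.43, 7.92, 6.5 and 8.12 in catagen and 11.7, 10.2, 11.5 and 10.4 in telogen. Catagen was the low stage, and none of its libraries reached the lowest value of anagen or telogen. WNT3 rose by 0.46 in telogen against catagen (SE 0.133, adjusted p = 0.0149), and its log2 difference between anagen and telogen was -0.01 (SE 0.133, adjusted p = 0.944). Its log2 difference between catagen and anagen was -0.44 and did not pass (SE 0.133, adjusted p = 0.263).

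WNT11, which acts largely through beta-catenin-independent routes, was at 48.04, 35.6, 43.05 and 36.2 in anagen, 43.3, 31.2, 32.3 and 31.6 in catagen and 13.5, 17.2, 11.6 and 24.04 in telogen. Telogen libraries were all below the others, with the March male the highest of the 4. It fell by 1.05 on the log2 scale in telogen against catagen (SE 0.19, adjusted p = 0.00136) and was higher in anagen than in telogen by 1.29 (SE 0.19, adjusted p = 2.75e-04). WNT5A, the other main ligand of that branch, was between 24.8 and 35.1 in all libraries and averaged 31.3 ± 3.33 in telogen and 29 ± 2.81 in catagen (SD, n = 4), a log2 difference of 0.11 (SE 0.114, adjusted p = 0.471).

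Of the other ligands, WNT5B was higher in anagen than in telogen by 0.44, at 1.66 ± 0.461 against 0.932 ± 0.171 (SD, n = 4, adjusted p = 0.0377). WNT2 and WNT16 were lower in anagen, by 0.93 and 0.70 (adjusted p = 0.0323 and 0.0472). The anagen and telogen libraries of all 3 genes overlapped, and each call depended on single libraries. That of WNT2 was lost on leaving out either September library, the May male or the female of February or March (highest adjusted p over all alternatives 0.101). That of WNT5B was lost on leaving out either library of May or February or the female of September or March (highest adjusted p over all alternatives 0.265). That of WNT16 was lost on leaving out any single library other than the September male, November female, November male and March male (highest adjusted p over all alternatives 0.331). WNT2B, WNT4 and WNT7B were not called in any stage comparison, with means over all libraries of 3.90, 6.61 and 4.66.

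Proteins that handle the ligands did not pass in any comparison. WLS, the carrier that takes Wnt proteins to the cell surface, was at 102 to 134, with a telogen minus catagen log2 difference of -0.10 (SE 0.0982, adjusted p = 0.432). PORCN, the enzyme that attaches the lipid, was at 8.9 to 16.6. RSPO1 and RSPO3, secreted proteins that keep Frizzled receptors at the surface, ranged over 2.54 to 6.71 and 0.92 to 2.87 and did not pass either.

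Of the 11 receptors and co-receptors, 3 fell in telogen against catagen and 0 rose, beside 19% and 24.5% of all genes. FZD1 was at 55.97, 46.3, 47.8 and 44.5 in anagen, 60.1, 50.7, 53.4 and 49.9 in catagen and 31.3, 33.7, 25.6 and 45.1 in telogen. The telogen libraries were below all of catagen, but the March male, at 45.1, lay above the lowest anagen library. It fell by 0.67 on the log2 scale in telogen against catagen (SE 0.143, adjusted p = 0.00331) and was higher in anagen than in telogen by 0.53 (SE 0.143, adjusted p = 0.00792). Without both May libraries, or without both February libraries, the second of these calls was lost (highest adjusted p over all alternatives 0.0651).

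FZD2 was at 19.3, 16.4, 17.3 and 16.5 in anagen, 24.5, 14.8, 15.6 and 15.5 in catagen and 10.8, 12.6, 12.1 and 12.7 in telogen. Telogen was below every other library, and the November female stood above the rest of catagen. It fell by 0.48 on the log2 scale in telogen against catagen (SE 0.137, adjusted p = 0.0132) and was higher in anagen than in telogen by 0.49 (SE 0.137, adjusted p = 0.00919). Both FZD2 calls were lost without both February libraries (highest adjusted p over all alternatives 0.0926 and 0.0689). That against anagen was also lost without both May libraries. LRP5, the co-receptor, was at 18.3, 14.6, 15.9 and 14.4 in anagen, 16.02, 13.1, 16.7 and 11.6 in catagen and 11.2, 6.76, 9.87 and 10.5 in telogen. None of the telogen libraries reached the lowest of the other 8. It fell by 0.54 on the log2 scale in telogen against catagen (SE 0.152, adjusted p = 0.0126) and was higher in anagen than in telogen by 0.68 (SE 0.152, adjusted p = 0.00262). LRP5 lost its call against catagen with libraries scaled to equal sums and without both February libraries (highest adjusted p over all alternatives 0.0625). LRP6, the paralogue of LRP5, had a higher level and a telogen minus catagen log2 difference of -0.06 (SE 0.0775, adjusted p = 0.544), from 48.6 ± 2.41 in telogen and 50.7 ± 1.67 in catagen (SD, n = 4).

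The most abundant receptor, FZD10, averaged 73.8 ± 14.4 in telogen and 94.8 ± 19.03 in catagen (SD, n = 4), and its log2 difference of -0.36 did not pass (SE 0.155, adjusted p = 0.0785). FZD6, which sets the orientation of hairs in mice, ranged over 40.96 to 68.3 and FZD7 over 58.7 to 76.6, without a call. FZD3, at 28.2 to 50.04, and FZD4, FZD5 and FZD8, with means of 9.15, 6.23 and 3.18, were not called either.

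Among the 8 extracellular inhibitors APCDD1 was the one that fell in telogen against catagen, beside 19% of all genes. APCDD1, a membrane protein that binds Wnt and LRP5 and is mutated in a human hereditary hair loss, was at 192, 219, 215 and 186 in anagen, 204, 191, 181 and 159 in catagen and 139, 108, 143 and 151 in telogen. Each telogen library was below each of the other 8. It fell by 0.44 on the log2 scale in telogen against catagen (SE 0.123, adjusted p = 0.0117) and was higher in anagen than in telogen by 0.59 (SE 0.123, adjusted p = 0.00171). The call against catagen was lost with quantile normalization, with equal library sums and without both February libraries (highest adjusted p over all alternatives 0.108).

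DKK1, which blocks LRP5 and LRP6 from outside the cell, was at 1.03, 2.21, 2.76 and 1.84 in anagen, 1.42, 2.63, 1.64 and 2.02 in catagen and 3.13, 2.99, 5.04 and 2.33 in telogen. The March female was the highest library, and the stages overlapped. DKK1 was lower in anagen than in telogen by 0.56 (SE 0.216, adjusted p = 0.0419), and its telogen minus catagen log2 difference of 0.56 did not pass (SE 0.216, adjusted p = 0.0502). The first call was lost in 13 of 22 alternatives, among them leaving out either library of May, December or February, the September male or the March female (highest adjusted p over all alternatives 0.223). The second difference passed in 8 of 22. SFRP1, the most abundant secreted inhibitor, averaged 126 ± 23.4 in telogen and 108 ± 4.49 in catagen (SD, n = 4), and DKK3 averaged 52.8 ± 6.896 in telogen and 62 ± 14.4 in catagen, and neither passed. WIF1, which binds Wnt proteins directly, had a telogen minus catagen log2 difference of -0.41 (SE 0.165, adjusted p = 0.059), and DKK2 and SFRP2 did not pass, at 13.5 to 20.8 and 0.41 to 1.75.

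In the cytoplasm, 5 of 9 genes fell in telogen against catagen and 3 rose, beside 19% and 24.5% of all genes. NKD1, a feedback inhibitor that binds Dishevelled, stayed at 12.8 to 18.3 without a call. CTNNB1, which encodes beta-catenin, a protein of cell adhesion as well as of Wnt signalling, was at 499, 505, 471 and 400.3 in anagen, 480.1, 338, 364 and 430.4 in catagen and 207, 238, 202 and 315 in telogen. Telogen was below every other library, and the March male was its highest. It fell by 0.75 on the log2 scale in telogen against catagen (SE 0.162, adjusted p = 0.00329) and was higher in anagen than in telogen by 0.98 (SE 0.162, adjusted p = 4.84e-04). Stage means were 469 ± 48.1 in anagen, 403 ± 64.3 in catagen and 240.4 ± 52.1 in telogen (SD, n = 4). CTNNB1 kept both calls under all 22 alternatives. In bulk tissue, fewer cells of a type and less RNA per cell cannot be told apart.

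AXIN2, a scaffold of the destruction complex and a widely used readout of beta-catenin activity, was at 14.9, 14.2, 13.9 and 13 in anagen, 13.1, 11.03, 13.1 and 10.5 in catagen and 6.9, 5.18, 8.67 and 7.94 in telogen. The groups of 4 telogen and 8 other libraries did not overlap, and the male was below the female in each of the 6 months. It fell by 0.67 on the log2 scale in telogen against catagen (SE 0.132, adjusted p = 0.00202) and was higher in anagen than in telogen by 0.90 (SE 0.132, adjusted p = 2.75e-04). AXIN1, the constitutive scaffold, was at 21.5, 20.4, 21.5 and 21.4 in anagen, 24.3, 19.1, 20.7 and 18.2 in catagen and 14.8, 11.8, 14.3 and 14.8 in telogen. It showed the same separation at a smaller size. It fell by 0.53 on the log2 scale in telogen against catagen (SE 0.103, adjusted p = 0.002) and was higher in anagen than in telogen by 0.58 (SE 0.103, adjusted p = 7.11e-04).

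APC, the large scaffold that binds beta-catenin within the same complex, was at 15.6, 15.6, 15.3 and 15.8 in anagen, 14.04, 17.9, 17.8 and 17.5 in catagen and 25.8, 25.4, 25.9 and 20.1 in telogen. Here the telogen libraries were all above the others, with the March male the lowest of the 4. APC rose by 0.51 in telogen against catagen (SE 0.103, adjusted p = 0.00251) and was lower in anagen than in telogen by 0.60 (SE 0.103, adjusted p = 5.79e-04). GSK3B, the kinase of the complex, was at 30.5, 31.2, 27.9 and 32.6 in anagen, 27.6, 35.5, 36.7 and 34.7 in catagen and 45.8, 49.4, 49.7 and 40.1 in telogen. It too was separate in telogen. GSK3B rose by 0.45 in telogen against catagen (SE 0.106, adjusted p = 0.00508) and was lower in anagen than in telogen by 0.58 (SE 0.106, adjusted p = 7.91e-04). Among transcripts of the destruction complex both axins fell and APC and GSK3B rose; without both February libraries GSK3B lost its call against catagen (adjusted p = 0.057).

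The 3 Dishevelled genes, whose proteins relay the signal from Frizzled, were divided. DVL1 was at 28.99, 28.6, 23.5 and 19.7 in anagen, 24.5, 19.1, 17.5 and 15.5 in catagen and 12.2, 7.9, 10.5 and 12.6 in telogen. Month means were 28.8 in May, 21.6 in September, 21.8 in November, 16.5 in December, 10.04 in February and 11.6 in March. The telogen libraries lay below all others. It fell by 0.77 on the log2 scale in telogen against catagen (SE 0.17, adjusted p = 0.00368) and was higher in anagen than in telogen by 1.16 (SE 0.17, adjusted p = 2.72e-04). DVL2 also fell, by 0.38 (SE 0.13, adjusted p = 0.0321), to 10.7 ± 2.33 in telogen, against 14 ± 1.01 in catagen (SD, n = 4). The DVL2 call was lost on leaving out any library of November or February or the female of December or March and with equal library sums (highest adjusted p over all alternatives 0.277).

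DVL3 was at 16.6, 16.1, 15.1 and 14.3 in anagen, 14.8, 14.6, 15.8 and 14.3 in catagen and 18.9, 19.9, 20.5 and 15.9 in telogen. Telogen was above all of catagen but overlapped anagen. DVL3 rose by 0.31 in telogen against catagen (SE 0.0931, adjusted p = 0.0164) and was lower in anagen than in telogen by 0.26 (SE 0.0931, adjusted p = 0.0336). The first call was lost with median ratio scaling, in month means and without both February libraries (highest adjusted p over all alternatives 0.129), and the second on leaving out any library of September or February or the March female (highest adjusted p over all alternatives 0.196).

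**Figure D3:**
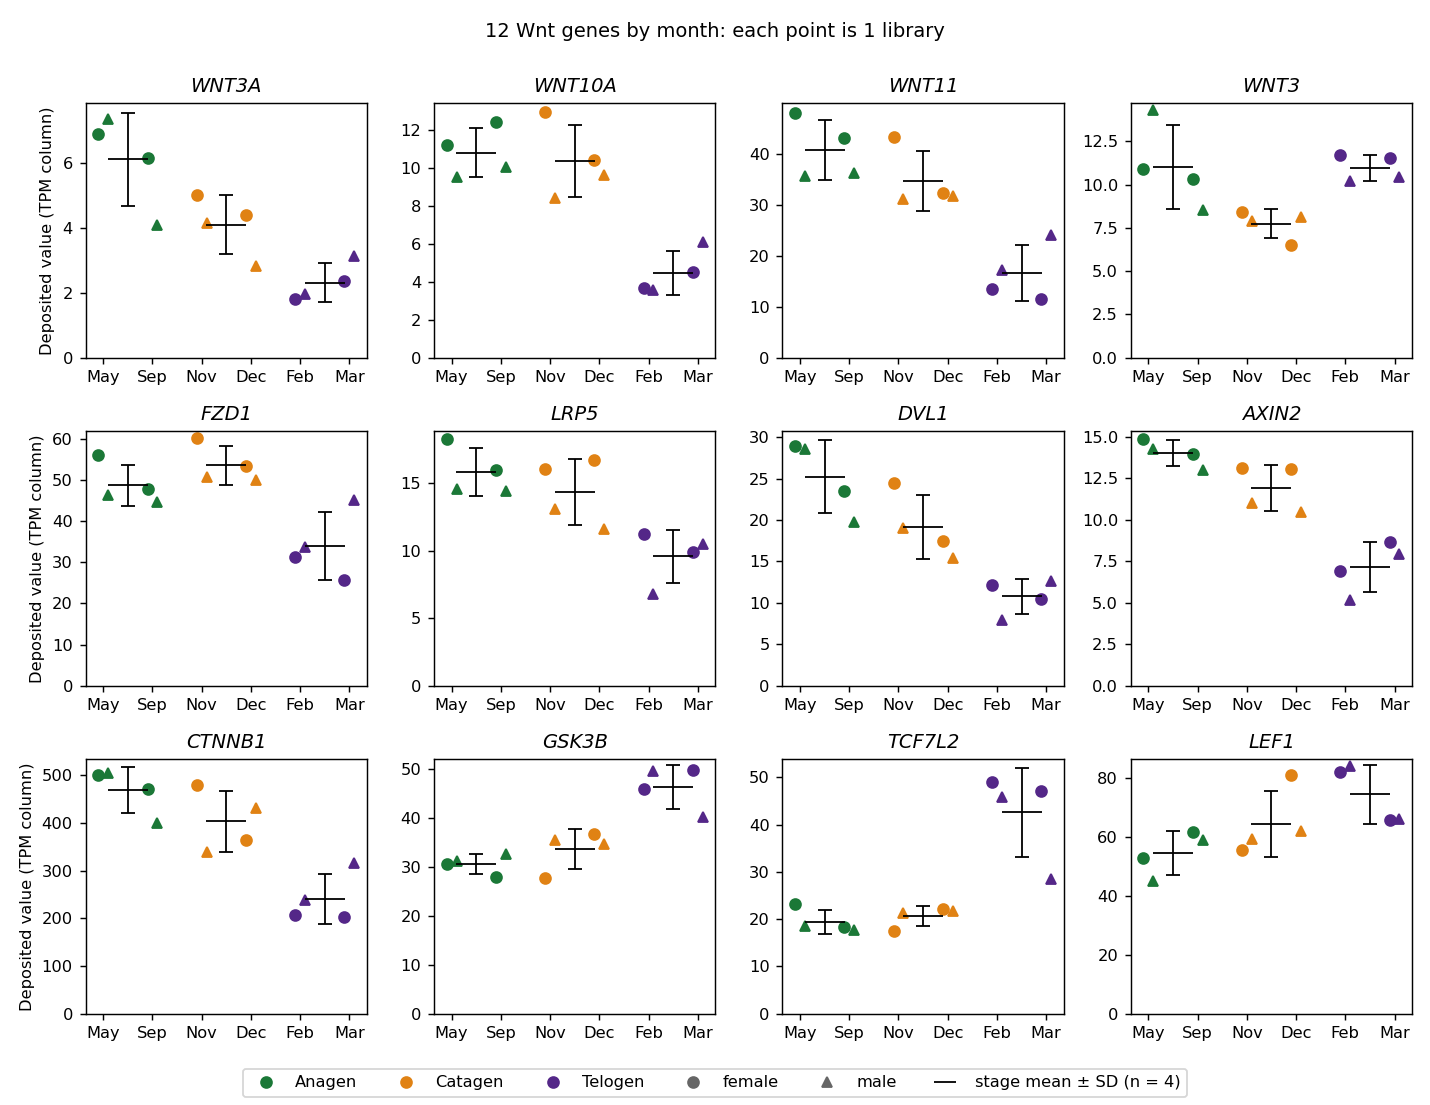
Deposited value of 12 Wnt genes in each library by month, with circles for females, triangles for males, colours for stages and a black bar for the stage mean ± SD (n = 4). Telogen points lie below the other stages for WNT10A, WNT11, LRP5, DVL1, AXIN2 and CTNNB1 and above them for GSK3B and TCF7L2, while WNT3 is lowest in catagen and LEF1 is lower in anagen than in telogen.

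Of the 4 TCF and LEF genes, 3 rose in telogen against catagen, beside 24.5% of all genes. All 4 were lower in anagen than in telogen, beside 29.2% of all genes. TCF7L2, a DNA-binding partner of beta-catenin that with TCF7L1 maintains follicle stem cells in mouse skin, was at 23.3, 18.6, 18.4 and 17.6 in anagen, 17.5, 21.2, 22.1 and 21.6 in catagen and 48.95, 45.8, 47.1 and 28.5 in telogen. The February libraries and the March female were above 45, and the March male lay between them and the other stages. TCF7L2 rose by 0.99 in telogen against catagen (SE 0.157, adjusted p = 7.90e-04) and was lower in anagen than in telogen by 1.07 (SE 0.157, adjusted p = 2.74e-04).

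TCF7, another partner of beta-catenin, was at 9.27, 8.09, 8.12 and 6.89 in anagen, 7.61, 7.29, 7.97 and 7.82 in catagen and 13.5, 12.6, 10.96 and 10.6 in telogen. Telogen was above all other libraries, and the male was below the female in all 6 months. TCF7 rose by 0.57 in telogen against catagen (SE 0.105, adjusted p = 0.00152) and was lower in anagen than in telogen by 0.51 (SE 0.105, adjusted p = 0.00168). TCF7L1, mainly a repressor, averaged 9.68 ± 2.76 in telogen and 5.402 ± 1.01 in catagen (SD, n = 4) and rose by 0.71 (SE 0.199, adjusted p = 0.0127), although its March male, at 5.57, lay within the catagen range.

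LEF1, expressed in the hair matrix and the forming shaft of mice, was at 52.7, 44.9, 61.6 and 58.8 in anagen, 55.4, 59.3, 80.8 and 61.97 in catagen and 82, 83.96, 65.8 and 65.9 in telogen. The December female stood with telogen, and the catagen and telogen libraries overlapped. LEF1 was lower in anagen than in telogen by 0.44 (SE 0.139, adjusted p = 0.0174), and its telogen minus catagen log2 difference of 0.21 did not pass (SE 0.139, adjusted p = 0.235). The first call was lost on leaving out the May male or either February library (highest adjusted p over all alternatives 0.205).

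**Figure D4:**
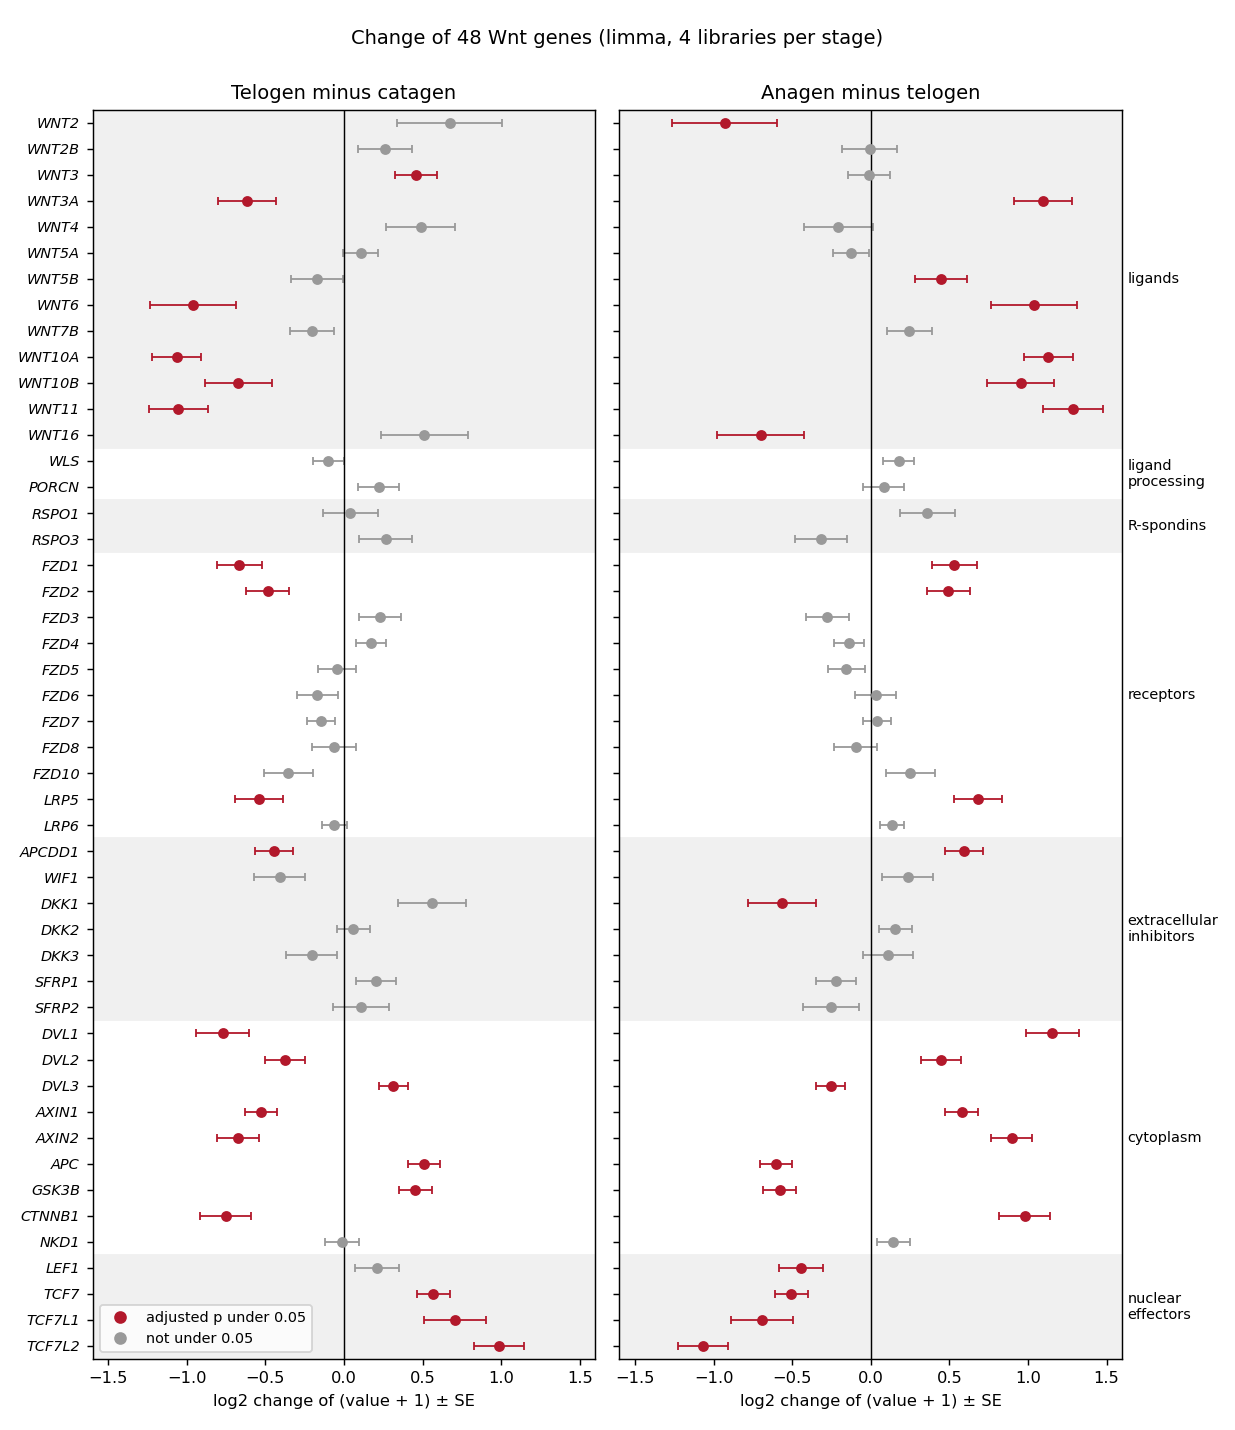
Log2 change of value + 1, with its SE, of the 48 tested Wnt genes in telogen minus catagen (left) and anagen minus telogen (right), by role, with genes at an adjusted p under 0.05 in red. The comparisons share the telogen libraries, so the mirrored pattern of the panels is partly built in.

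The return of growth was addressed by comparing anagen with telogen. In anagen 15 of 48 Wnt genes were higher and 10 lower, 52.1% in all, beside 52.9% of all tested genes, of which 23.7% were higher and 29.2% lower. With median ratio scaling 17 were higher and 7 lower. The median log2 difference was 0.10 for the Wnt genes and -0.07 over all genes. Since the telogen libraries serve in both comparisons, the genes called in both are not separate evidence. With both May libraries left out, 10 Wnt genes were higher and 6 lower in anagen, and with both February libraries left out, 10 were higher and 4 lower. Calls over all genes fell to 38.0% and 33.9% in these fits, so the lower counts are no result about Wnt genes.

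Catagen compared with anagen, the end of growth, gave no call among the 48 Wnt genes in limma, where 0.0559% of all genes were called. An unadjusted p under 0.05 was reached by 5 of the 48 Wnt genes, beside 2519 of the 16095 genes tested. The log2 differences ran from -0.48, in WNT3A (SE 0.185, adjusted p = 0.271), to 0.25, and the median was -0.05, beside -0.02 over all genes. WNT3 was the only 1 of 48 whose catagen and anagen libraries did not overlap, which held for 7.03% of all tested genes.

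September against May, the months of anagen, gave 0 calls among the 48 Wnt genes in limma, with 0.137% of all genes called (0.0311% higher and 0.106% lower). An unadjusted p under 0.05 was reached there by 0 Wnt genes, beside 1572 of the 16095 genes tested. Male against female, with month as a block, gave 0 calls, beside 0.0559% of all genes (0.0435% higher and 0.0124% lower). For sex, 6 Wnt genes had an unadjusted p under 0.05, beside 1185 of the 16095 genes tested. Those 6 were WNT2, WNT5A, LRP5, AXIN2, TCF7L1 and PORCN, each with a lower mean in males.

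February against December, the step into rest, called 9 Wnt genes. WNT10A, AXIN2, AXIN1, CTNNB1, DVL1 and WNT11 fell and TCF7L2, TCF7 and APC rose, which is 6.25% of the 48 higher and 12.5% lower, beside 8.9% and 7.69% of all genes (16.6% in all). With median ratio scaling 2 rose and 11 fell, and with quantile normalization 2 rose and 8 fell. WNT10A fell by 1.26 (SE 0.205, adjusted p = 0.0162), to a mean of 3.605 in February, against 10.03 in December (n = 2). No Wnt gene passed without the December female, the December male or the February male, fits in which 42, 19 and 22 of all genes passed. The count was 4 without any 1 anagen library (9.61 to 10.9% of all genes), 3 without the February female (6.07%) and 16 without either March library (27.9% and 27.8%).

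May against March, the step out of rest, called 10, with DVL1, WNT3A, AXIN2, WNT11, WNT10A, CTNNB1 and AXIN1 higher in May and TCF7L2, APC and GSK3B lower. These were 14.6% and 6.25% of the 48, beside 13.9% and 13.4% of all genes (27.4% in all). DVL1 had the smallest adjusted p, with a log2 difference of 1.25 (SE 0.201, adjusted p = 0.0064), with means of 28.8 in May and 11.6 in March (n = 2). Leaving out 1 library gave a count of 0 for the May female, 1 for the May male, 2 for the March female and 15 for the March male, beside 1.4%, 2.38%, 8.93% and 37.9% of all genes.

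Over all 6 months, 15 of the 48 Wnt genes passed the F test, beside 32.7% of all genes. They were WNT3, WNT3A, WNT6, WNT10A, WNT11, DVL1, AXIN1, AXIN2, APC, GSK3B, CTNNB1, LEF1, TCF7, TCF7L2 and APCDD1. With the 4 telogen libraries left out none of the Wnt genes passed, and 44 of 15179 genes in all did. The number was 7 on leaving out the May female or the February male (16.7% and 14.9% of all genes), 8 for the May male (16.4%) and 9 for the February female (3521 of 15973). May held the highest mean for 20 of the 50 Wnt genes, February for 15 and November for 8. The lowest mean was in February for 18, in September for 12 and in December for 7. Highest and lowest months were not counted over all genes, so these numbers are no result about Wnt genes.

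The March male stood apart from the other telogen libraries in many of these genes. Of the 21 called between telogen and catagen, it was the telogen library nearest to the catagen mean in 17, beside 4205 of the 7011 genes called in all, and without it 24 Wnt genes were called, beside 47.8% of all genes. With both February libraries left out, so that the March libraries alone stood for telogen, 10 of the 21 were called, namely WNT10A, WNT11, FZD1, DVL1, AXIN1, AXIN2, APC, CTNNB1, TCF7 and TCF7L2. Calls over all genes fell likewise, to 19.7% in that fit. These 10 kept their call under all 22 alternatives, and another 5, WNT3, WNT6, FZD2, GSK3B and TCF7L1, lost it in that fit alone.

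Ratios of related genes within a library do not change where a library is scaled by a single factor, although quantile normalization would change them, and the authors' scaling is not given. The pairs were chosen after the values were seen and are described without a test. The ratio of TCF7L2 to LEF1 was 0.363 ± 0.0752 in anagen, 0.324 ± 0.0386 in catagen and 0.573 ± 0.118 in telogen (SD, n = 4), and the March male, at 0.432, was below the May female, at 0.442. GSK3B to CTNNB1 was 0.0659 ± 0.0105, 0.0859 ± 0.0217 and 0.201 ± 0.0515, with the lowest telogen value, 0.127, above the highest catagen value, 0.105. The ratio of APC to AXIN1 was 0.735 ± 0.0233 in anagen, 0.833 ± 0.176 in catagen and 1.77 ± 0.333 in telogen, and APC exceeded AXIN1 in each telogen library and in none of the others. Likewise DVL3 exceeded DVL1 in telogen alone, with ratios of 1.26 to 2.52 there and at most 0.923 in the other stages. WNT5A to WNT11 was 1.34 to 3.04 in telogen and at most 0.957 elsewhere. LRP6 to LRP5 overlapped between stages, at 4.28 to 7.20 in telogen and 2.999 to 4.42 in catagen.

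**Figure D5:**
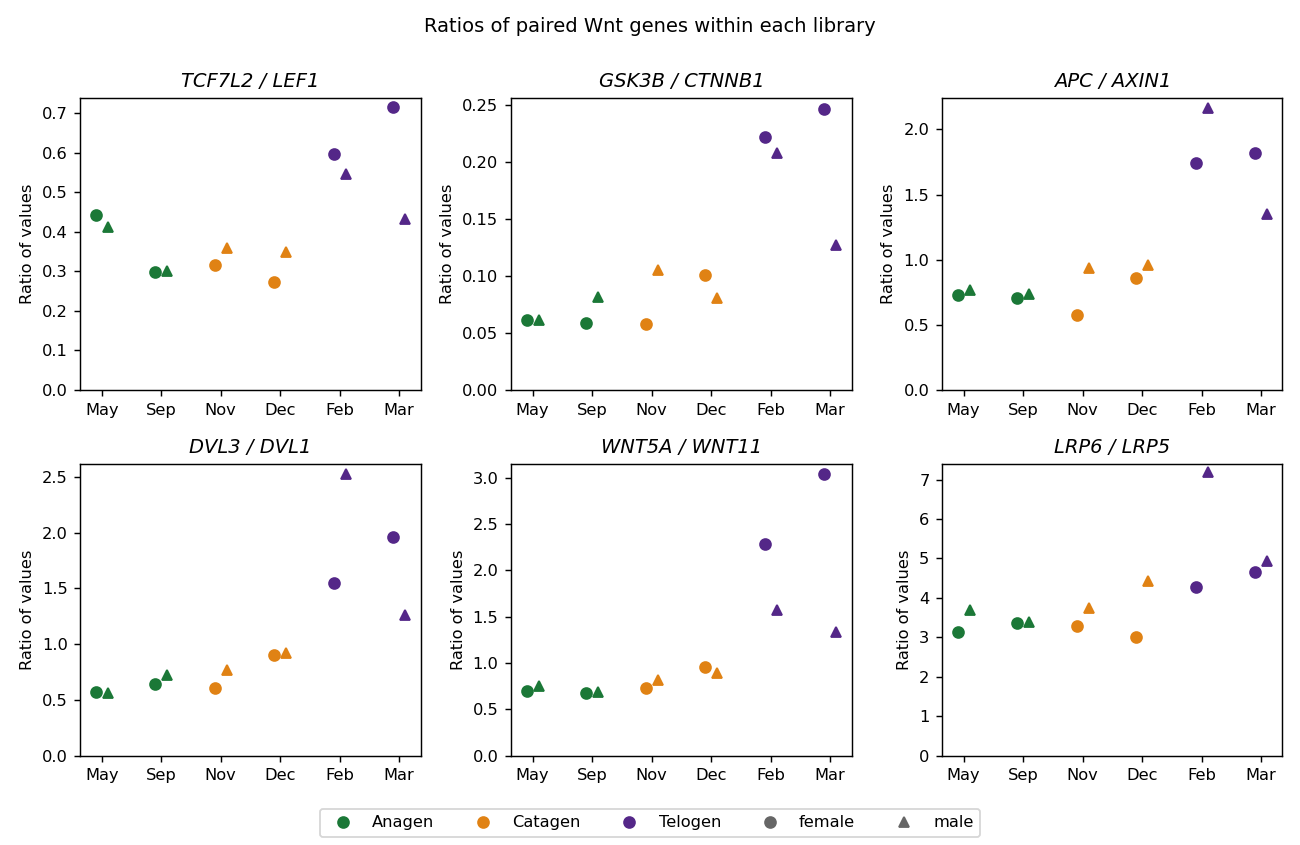
Ratio of the deposited values of 6 pairs of Wnt genes within each library, by month, with colours for stages, circles for females and triangles for males. The telogen points lie above all others for GSK3B to CTNNB1, APC to AXIN1, DVL3 to DVL1 and WNT5A to WNT11.

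Other genes of the pathway were taken from a list of 70, of which 64 were found and 55 tested. In telogen against catagen 9 of the 55 rose and 8 fell, where 24.5% of all genes rose and 19% fell. The median log2 change of the 55 was -0.08, beside 0.07 over all genes. The highest-level genes that rose were SOSTDC1, a secreted inhibitor of BMP and Wnt signals (0.59, adjusted p = 0.00877; 64 ± 7.21 in telogen against 42.4 ± 7.23 in catagen, SD, n = 4), the casein kinase CSNK1G3 (0.29, adjusted p = 0.0423) and TNKS, a tankyrase that marks axin for destruction (0.31, adjusted p = 0.0147). Those that fell were CTNNBIP1, which keeps beta-catenin off TCF proteins (-0.50, adjusted p = 0.021), PTK7, a co-receptor of planar cell polarity (-0.92, adjusted p = 0.00144; 31.4 ± 7.19 in telogen against 60.1 ± 12.97 in catagen), and the co-repressor CTBP1 (-0.51, adjusted p = 0.00197).

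In anagen against telogen 14 of these 55 genes were higher and 13 lower, where 23.7% of all genes were higher and 29.2% lower. CTNNBIP1, PTK7 and CTBP1 were higher in anagen, by 0.86, 1.16 and 0.48. SOSTDC1, TNKS2 and MYC, a target of beta-catenin in several tissues, were lower, by 0.56, 0.29 and 0.94, with MYC at 27.3 ± 6.504 in anagen and 52.7 ± 8.31 in telogen (SD, n = 4). None of the 55 was called between catagen and anagen or between September and May in limma, beside 0.0559% and 0.137% of all genes.

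Some markers of follicle layers and other cells also differed between the stages. In telogen against catagen 5 of 7 tested hair shaft keratins and 3 of 5 inner root sheath genes fell and 0 of either list rose. In the other direction, 5 of 7 T cell and myeloid genes, 3 of 6 melanocyte genes and 3 of 10 dermal papilla genes rose and 0 fell. Of all genes, 24.5% rose and 19% fell, so the dermal papilla share in this comparison is near that of all genes. In anagen against telogen 1 of the 10 dermal papilla genes was higher and 5 were lower, beside 23.7% and 29.2% of all genes. T cell and myeloid genes summed to 45.1 to 58.7 in telogen and 26.3 to 36.1 in catagen, and melanocyte genes to 57.3 to 85.4 in telogen and 46.3 to 59.0 in catagen. Of the genes in these 5 lists NOG was below 1 in every telogen library, and CD2, TYR and SOX2 in every catagen library. Among 9 tested skeletal muscle genes 3 were higher and 1 lower in anagen than in telogen, beside 23.7% and 29.2% of all genes. Their summed values were 16.8 to 256.6 in anagen and 20.5 to 27.9 in telogen. Endothelial genes, 2 of 6 lower in telogen against catagen with 0 higher, summed to 81.6 to 185.7 in telogen and 117.6 to 151.3 in catagen. In anagen against telogen 1 of these 6 was higher and 3 were lower. Few genes of the other lists were called in telogen against catagen. There, 1 of 5 epidermis, 1 of 3 adipocyte and 1 of 9 skeletal muscle genes rose and 0 fell. Of dermal fibroblast and smooth muscle genes 1 of 8 and 2 of 6 fell and 0 rose. The part of these differences, and of the mitochondrial and ribosomal shares, in the values of the Wnt genes was not tested.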

How the data were processed

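RNA from goat secondary hair follicles was extracted with RNAiso Plus, per the labels' protocols, and kallisto 0.46.1 and sleuth 0.30.0 are named in the submitters' processing notes. Genome build and read depth are not given in the sources used here. The deposited signal values, 1 per gene and library under a heading of TPM, differ in sum between libraries, and the scaling the authors applied is not given in the sources used here. The planned design allowed for counts; its branch for normalized values was used. Files were joined by gene ID, because some symbols appear as dates in some of them; 20294 of 20326 IDs matched the RefSeq table of goat assembly ARS1.2 and 32 did not.

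The 16095 genes reaching 1 or more in 2 or more libraries were fitted on log2(value + 1) in limma 3.58.1 under R 4.3.3 with a mean-variance trend, 1 group per stage or per month, and sex was fitted over a block for month. Benjamini-Hochberg adjustment ran over all genes tested. The fits were also run on simulated normal values, drawn independently for each gene and library. Such values lack effects that the genes of a library share, so no result here rests on them. Alternatives were 3 scalings, no filter, an added constant of 0.5, no trend, the replicate number as a block, month means, pairs of libraries left out and each library left out.

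The Wnt genes, the gene lists and the tests were chosen with earlier results of these data known. Each library's values are printed for a Wnt gene that passed a stage comparison without overlap of the 4 and 4 libraries and had a mean of at least 2, and for CTNNB1, LEF1, AXIN2, WNT10B and DKK1. Other pathway genes are the 3 of highest mean among those called, per direction and stage comparison. Promoter motifs and sequences were not analysed here.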

Additional observations from a re-analysis of the deposited data

Results flagged for a closer look

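In a search of 63 groups, 21 Wnt genes in 3 stages of 4 libraries, 8 groups had 1 library far from the other 3. The threshold used is passed by about 1 in 20 independent groups of normal values. The 21 genes share the same libraries, so the groups are not independent and that rate is no measure of chance here. The November female was that library in 5 of them, and it also had the largest sum of values, 1127797. It was above the rest of catagen in WNT10B (6.19 beside 4.29 to 4.35), WNT11 (43.29 beside 31.19 to 32.28) and FZD2 (24.47 beside 14.82 to 15.61), and below them in APC (14.04 beside 17.51 to 17.86) and TCF7L2 (17.54 beside 21.24 to 22.05). Within telogen the March male was below the rest in APC (20.07 beside 25.44 to 25.92) and TCF7L2 (28.47 beside 45.79 to 48.95). Its share of mitochondrial transcripts was 4.63%, beside 9.88 to 11.8% in the other telogen libraries. In anagen the May male was below the rest in AXIN1, by a small amount (20.41 beside 21.39 to 21.54).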

How the results depend on the processing

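No Wnt gene reversed direction with a call under any alternative. Of the 21 calls in telogen against catagen 10 were kept under all 22 alternatives, and of the 25 in anagen against telogen 14 were, 9 of them in both. Leaving out 1 library gave 18 to 24 and 19 to 25 calls in these comparisons, 7 to 20 in the F test, 0 to 16 for February against December, 0 to 15 for May against March and 0 for catagen against anagen, September against May and male against female. In a month comparison such a fit leaves 1 library in a group and assumes that it varies like the others. Without both May libraries anagen against telogen had 16 calls. Added after the data were seen, leaving out both February libraries gave 14 there and 10 in telogen against catagen, and leaving out the 4 telogen libraries gave 0 in the F test. Without a variance trend February against December had 5. Scaling changed the split of calls: with equal sums 8 rose and 10 fell in telogen against catagen, with median ratios 17 were higher and 7 lower in anagen against telogen, and for February against December 2 rose with 11 falling (median ratios) or 8 (quantile normalization). Equal sums moved the median of all genes to -0.17 in September minus May, against -0.003 as deposited. The replicate number marks sex. Libraries of different stages with the same number had correlations of their deviations from stage means of -0.154 to 0.241 (median 0.051). These were over 0.1 in 8 of 24 pairs. Libraries with different numbers had correlations of -0.296 to 0.327 (median -0.028), over 0.1 in 4 of 24 pairs. Since the number is also the sex, these values cannot tell whether the numbers pair animals. With the replicate block the calls were 22 in telogen against catagen, 23 in anagen against telogen, 16 in the F test, 9 for February against December, 12 for May against March and 0 in catagen against anagen and September against May. The block lost APC, CTNNB1 and WNT11 and gained LRP5, TCF7L1 and WNT6 for February against December, gained LRP5 and WNT6 for May against March, lost DKK1 and WNT16 in anagen against telogen and gained WNT2 in telogen against catagen.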

Other observations

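In telogen, 5 of the 14 ligands (WNT2, WNT3, WNT4, WNT7B and WNT16) were lower in both males than in both females. Another 2 (WNT2B and WNT11) were higher in both males, and 7 overlapped. The comparison was chosen after the values were seen and was not tested. How many of all genes separate in this way was not counted. The males include the March male, which stood apart from the other telogen libraries in many Wnt genes. WNT2 was at 1.74 and 1.54 in the males and 7.1 and 5.01 in the females. WNT4 was at 4.81 and 6.39 in the males and 10.2 and 10.6 in the females. WNT16 was at 2.49 and 1.75 in the males and 4.17 and 4.44 in the females. Over all 6 months, however, the male was higher than the female in 3 for WNT4 and in 3 for WNT16. WNT2 was lower in the male in all 6 months, as were WNT5A, AXIN2, TCF7, TCF7L1 and PORCN, and none of the 48 tested Wnt genes passed for sex. How many of all genes were lower in the male in all 6 months was not counted either, so this list is no result about Wnt genes.

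NKD2, the relative of NKD1, is outside the naming rule and was chosen after its values were seen; it fell by 1.00 (SE 0.141, adjusted p = 4.83e-04), to 3.81 ± 0.714 in telogen, against 8.7 ± 1.81 in catagen (SD, n = 4), while the log2 difference for NKD1 was -0.01 (SE 0.105, adjusted p = 0.931).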
